A study of Mus musculus with 6 samples.

Results

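The genes described here are 10 genes of the circadian clock, chosen by name and not by their values: the activators Arntl and Clock, the repressors Per1, Per2, Per3, Cry1 and Cry2, the nuclear receptors Nr1d1 and Nr1d2, and the output factor Dbp. Each matched 1 Ensembl gene ID among the 55401 in the files, and all 10 passed the filter on low values, which kept 13590 genes (1 FPKM or more in 3 libraries or more). FPKM counts sequenced fragments relative to gene length and library size, so levels can be compared between genes. RNA came in bulk from lamina propria cells, the cells of the connective tissue layer under the epithelium, of the colon of male Apc Min/+ mice aged 5 to 6 weeks. Both groups carry the Min allele, a nonsense mutation of the tumour suppressor gene Apc that gives heterozygous mice many intestinal polyps. For 3 libraries mice had been given atorvastatin by gavage at 20 mg/kg on alternate days, and for the other 3 libraries the vehicle, 2% Tween 80, by the same route and schedule. Atorvastatin is an inhibitor of HMG-CoA reductase, the rate-limiting enzyme of cholesterol synthesis. The sources used here give neither the hour at which tissue was taken nor whether each library had its own animal. The p-values below therefore reflect library-to-library spread, which may be technical.

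The clock is a loop of transcription factors that runs in nearly every cell. ARNTL (also called BMAL1) and CLOCK bind DNA as a dimer and switch on the Per, Cry, Nr1d and Dbp genes; PER and CRY proteins then shut the dimer off, and the NR1D receptors (REV-ERBs) repress Arntl itself. In a tissue sampled around the day, Arntl and Npas2 are high when Dbp, Nr1d1 and the Per genes are low. In the gut the clock runs in epithelium, stroma and immune cells, where food and light set its hour.

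The DNA words through which clock factors are known to act can be read in the genome. RefSeq windows (GRCm38.p6) from 250 bases before to 50 bases after a transcription start were matched by symbol for 9 of the 10 genes, in 13 windows; Per2 has none here. They were searched on both strands for the E-box CACGTG and the E'-box CACGTT, bound by ARNTL and CLOCK; for the D-box TTATGTAA or TTACGTAA, bound by DBP; for the core AGGTCA of the element bound by ROR and NR1D receptors; and for the cAMP response element TGACGTCA. None of these words contains another, though matches may share bases. The E-box stood in windows of Per1 and Cry1 (7.17% of 32544 windows of this length hold it). The E'-box stood in windows of Cry1, Cry2 and Nr1d1 (4.71% of all windows). The D-box stood at 2 places in the window of Per3 (1.05%), and AGGTCA in windows of Arntl, Clock, Per1 and Nr1d2 (16.2%). Counted by window, the E-box was in 2 of the 13, the E'-box in 3, the D-box in 1 and AGGTCA in 4. The other windows of Arntl, Clock and Per1 held none of the motifs. TGACGTCA was in no window of these genes (1.8%), and the window of Dbp held none of the 5 motifs, which says only that these letters are not there. The sequences below show the named match of each gene in capitals, 5′ to 3′ on the gene's strand; they are the 250 bases before the start for Per1 (chr11:69098699-69098948, plus strand, match at -166, before a start inside the gene as the files bound it), Cry1 (chr10:85185055-85185304, minus strand, match at -60), Nr1d1 (chr11:98775378-98775627, minus strand, match at -28, the E'-box read on the other strand) and Per3 (chr4:151044666-151044915, minus strand, matches at -205 and -158), and for Arntl 30 bases after a start (chr7:113207530-113207559, plus strand, match at 32). They are shown as examples of the matches, the E-box in Per1 and Cry1 and the other kinds in 1 gene each, for genes whose levels are described below; a match is not evidence of binding.
Per1: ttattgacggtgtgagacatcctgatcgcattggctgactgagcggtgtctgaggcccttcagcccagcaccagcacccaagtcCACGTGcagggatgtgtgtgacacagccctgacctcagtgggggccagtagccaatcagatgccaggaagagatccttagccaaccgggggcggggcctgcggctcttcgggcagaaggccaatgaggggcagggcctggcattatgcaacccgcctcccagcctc
Cry1: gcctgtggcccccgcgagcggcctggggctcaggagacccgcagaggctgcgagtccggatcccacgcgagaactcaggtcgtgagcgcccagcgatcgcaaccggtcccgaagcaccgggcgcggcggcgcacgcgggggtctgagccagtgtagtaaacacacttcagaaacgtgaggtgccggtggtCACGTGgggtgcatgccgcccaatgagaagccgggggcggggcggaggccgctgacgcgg
Nr1d1: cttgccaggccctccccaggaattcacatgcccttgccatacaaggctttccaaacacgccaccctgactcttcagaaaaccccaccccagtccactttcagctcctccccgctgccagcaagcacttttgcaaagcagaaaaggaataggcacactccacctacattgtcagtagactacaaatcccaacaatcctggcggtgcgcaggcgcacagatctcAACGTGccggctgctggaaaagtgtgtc
Per3: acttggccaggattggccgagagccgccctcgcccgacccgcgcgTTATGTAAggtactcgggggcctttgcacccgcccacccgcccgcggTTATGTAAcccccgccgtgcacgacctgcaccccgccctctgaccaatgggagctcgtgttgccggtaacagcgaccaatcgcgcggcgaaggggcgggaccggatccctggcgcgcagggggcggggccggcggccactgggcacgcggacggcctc
Arntl: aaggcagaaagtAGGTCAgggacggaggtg

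The libraries did not match in the balance of the limbs: vehicle library 1 stood apart from the other 5. It had the lowest Arntl and the highest Dbp, Per1, Per2, Per3 and Nr1d2 of the 6 libraries. In it, Dbp, an activator of output genes, was 5.75 times its highest level elsewhere, and Arntl was below its lowest level elsewhere by a factor of 2.11. Vehicle library 1, singled out after its values were seen, was the extreme library for 6 of the 10 genes, against 24% of all genes tested, and lay over 0.5 log2 units outside the range of the others for 4 of them (Dbp, Arntl, Per3 and Per2), against 1.21% of all genes. Over 1 log2 unit outside were 37 genes (0.272%), Dbp among them. With 2.28 log2 units Dbp had the 8th largest distance of 13590 genes, and the 7 genes before it were 5 immunoglobulin variable segments and 2 pseudogenes. None of the other 5 libraries lay over 0.5 log2 units outside the rest for any of the 10 genes. This includes vehicle library 3, which was also the extreme library for 6 of the 10 genes, against 54.5% of all genes, and was over 0.5 log2 units outside for 6.19% of them. These are counts over 6 libraries as they fell, with no test.

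**Figure D1:**
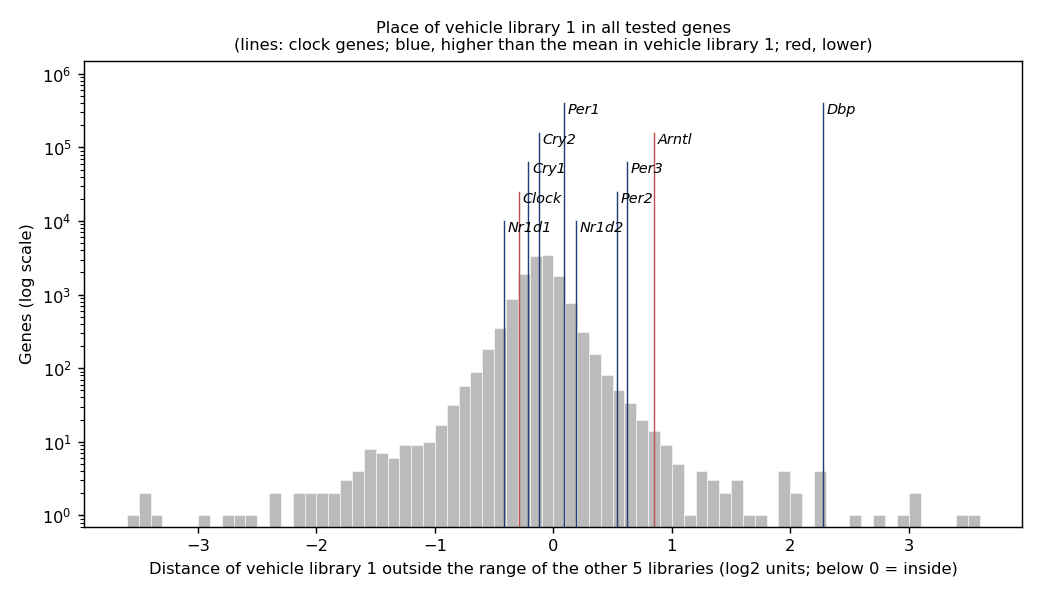
Histogram of 13590 genes by the distance, in log2(FPKM + 1) units, of vehicle library 1 from the range of the other 5 libraries (values below 0 lie inside the range; the gene axis is logarithmic). Lines mark the 10 clock genes; Dbp lies at 2.28 and Arntl, on the low side of the other libraries, at 0.85, while Nr1d1 and Clock lie inside the range.

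Arntl and Clock form the activating dimer. Arntl had 6.53, 6.18 and 7.71 FPKM in the atorvastatin libraries, and 2.57, 5.42 and 6.20 FPKM in the vehicle libraries. Apart from vehicle library 1 all values lay between 5.42 and 7.71, and the groups overlapped by the narrow margin between 6.18 and 6.20. The difference of log2(FPKM + 1), atorvastatin minus vehicle, was 0.50 (SE 0.26; limma, adjusted p = 0.696). Leaving out vehicle library 1 gave 0.19 (SE 0.15, adjusted p = 0.812). Arntl (ENSMUSG00000055116) lies on chromosome 7, from 113207465 to 113314126, as the files and GENCODE M21 give it. Clock, its partner, whose level changes little over the day in most mouse tissues, had 3.60, 3.88 and 5.09 FPKM with atorvastatin, and 3.85, 4.07 and 2.96 FPKM with vehicle. It had one of the narrow ranges among the 10 genes (highest over lowest 1.72), and vehicle library 1 lay inside that of the others. The log2 difference of Clock was 0.16 (SE 0.16, limma adjusted p = 0.808).

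Dbp encodes a PAR bZIP factor that binds D-boxes. Dbp had 4.33, 2.83 and 4.25 FPKM in the atorvastatin libraries, and 24.89, 4.22 and 2.19 FPKM in the vehicle libraries. The vehicle group thus held both the highest and the lowest library, with the atorvastatin libraries between. Dbp had the widest range of the 10 genes, 11.4 between the highest and the lowest library. Its log2 difference of -0.67 (SE 0.71, 95% interval -2.37 to 1.03, limma adjusted p = 0.824) turned to 0.22 (SE 0.26, interval -0.42 to 0.86, adjusted p = 0.871) without vehicle library 1. Dbp (ENSMUSG00000059824, chromosome 7, 45705088 to 45710203) shares 539 of its 2993 exon bases, 18%, with Sphk2 on the other strand, and the sources used here do not give the strand setting of the counting, so reads of the shared bases cannot be told apart. Sphk2 had 5.47, 5.18 and 7.28 FPKM with atorvastatin, and 6.60, 7.32 and 5.66 FPKM with vehicle, highest in vehicle library 2. These values may hold the same shared reads, and the part of such reads in the level of Dbp was not tested.

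The ratio of Dbp to Arntl, both in FPKM, was 0.663, 0.458 and 0.551 in the atorvastatin libraries, and 9.68, 0.779 and 0.353 in the vehicle libraries. That of Nr1d1 to Arntl was 12.2, 3.28 and 7.19 with atorvastatin, and 23.2, 5.84 and 2.84 with vehicle. In it vehicle library 1 was again highest, but the other libraries spanned 2.84 to 12.2. The same balance over more genes, taken as log2(FPKM + 1) of Arntl minus the mean of Nr1d1, Nr1d2, Dbp, Per1, Per2 and Per3, was -0.68, -0.29 and -0.45 with atorvastatin, and -2.45, -0.55 and -0.09 with vehicle. Vehicle library 1 lay below all others, which spanned -0.68 to -0.09. The ratios and this balance are built from the same values by which that library was singled out. They describe it and are not further evidence that it stood apart. The group means were -0.47 ± 0.20 with atorvastatin and -1.03 ± 1.25 with vehicle (SD, n = 3 each), and the vehicle mean was -0.32 without vehicle library 1. The difference between the groups, 0.55, was therefore smaller than the spread between vehicle libraries and turned to -0.15 without that library.

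**Figure D2:**
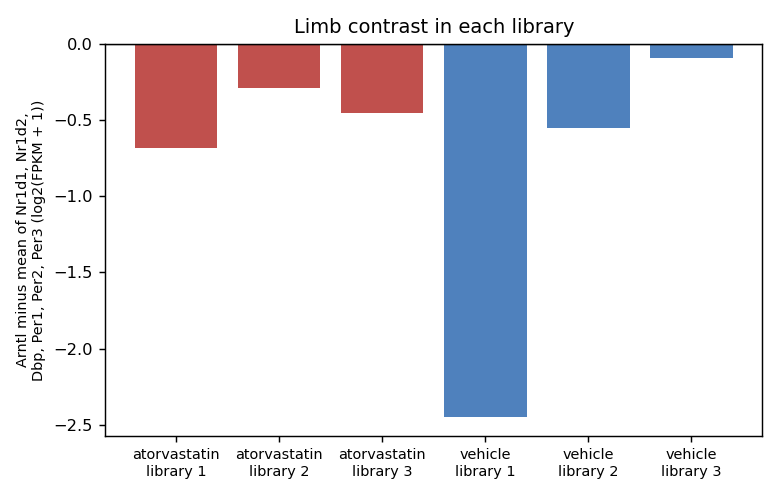
Bars give, for each library, log2(FPKM + 1) of Arntl minus the mean of 6 genes that the Arntl-Clock dimer activates, with atorvastatin in red and vehicle in blue. Vehicle library 1 stands at -2.45, and the other 5 libraries lie between -0.68 and -0.09.

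The Per genes encode the repressors whose level follows the activating dimer; Per1 is in addition induced by stress hormones and cAMP signals. Per1 had the highest level of the 3, with 22.83, 15.07 and 22.75 FPKM with atorvastatin, and 24.37, 17.51 and 12.85 FPKM with vehicle. Vehicle library 1 was highest by a factor of 1.07, and atorvastatin libraries 1 and 3 lay close to it. Per2 had 3.46, 5.19 and 3.89 FPKM with atorvastatin, and 8.02, 3.60 and 3.75 FPKM with vehicle. Per3 had 1.09, 1.47 and 1.34 FPKM with atorvastatin, and 2.79, 1.31 and 1.00 FPKM with vehicle. In Per2 and Per3 vehicle library 1 exceeded the highest other library by factors of 1.55 and 1.90, and the other vehicle libraries lay among or below the atorvastatin libraries. The log2 difference was 0.16 for Per1 (SE 0.26), -0.18 for Per2 (SE 0.28) and -0.18 for Per3 (SE 0.24), with limma adjusted p = 0.885, 0.882 and 0.868. Without vehicle library 1 the differences of Per2 and Per3 were 0.13 and 0.09, and that of Per1 was 0.38.

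**Figure D3:**
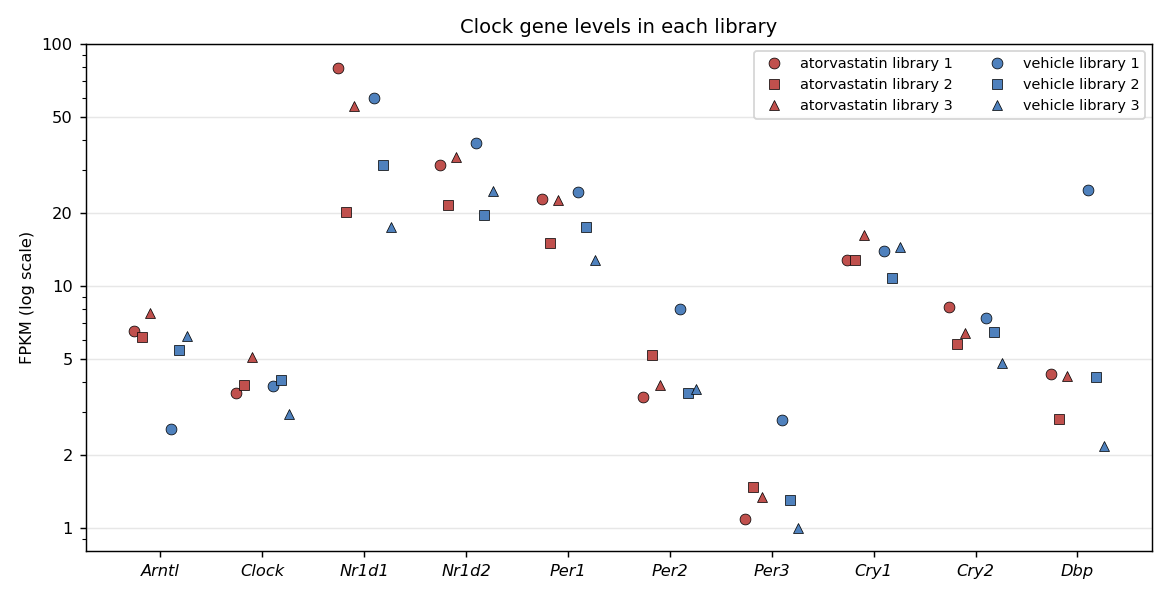
FPKM of the 10 clock genes (log axis) in 3 atorvastatin libraries (red, left of each pair) and 3 vehicle libraries (blue, right); symbols give the library number. Vehicle library 1 (blue circle) is lowest for Arntl at 2.57 and highest for Dbp at 24.89, and the groups overlap for all 10 genes.

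Cry1 and Cry2 encode the partners of the PER proteins. Cry1 had 12.78, 12.83 and 16.21 FPKM with atorvastatin, and 13.93, 10.81 and 14.49 FPKM with vehicle, the narrowest range of the 10 genes. Cry2 had 8.16, 5.75 and 6.41 FPKM with atorvastatin, and 7.40, 6.43 and 4.80 FPKM with vehicle. In both genes vehicle library 1 lay inside the range of the others. The log2 differences were 0.09 for Cry1 (SE 0.15, 95% interval -0.28 to 0.46) and 0.11 for Cry2 (SE 0.18, interval -0.32 to 0.54), with limma adjusted p = 0.897 and 0.885.

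Nr1d1 and Nr1d2 encode the REV-ERB receptors, which bind heme and silence Arntl. Nr1d1 had the highest mean level of the 10 genes, 44.1 FPKM over the 6 libraries, and Per3 the lowest. Nr1d1 had 79.94, 20.29 and 55.41 FPKM in the atorvastatin libraries, and 59.55, 31.67 and 17.60 FPKM in the vehicle libraries. Its highest library was atorvastatin library 1, 4.54 times the lowest, and both groups held high and low libraries. The log2 difference of Nr1d1 was 0.47 (SE 0.59, 95% interval -0.93 to 1.87, limma adjusted p = 0.855), and 0.90 (SE 0.58, adjusted p = 0.793) without vehicle library 1. Nr1d1 shares 263 of its 3077 exon bases, 8.5%, with Thra, the thyroid hormone receptor gene on the other strand, which had 12.63, 8.71 and 12.53 FPKM with atorvastatin, and 8.21, 11.1 and 7.83 FPKM with vehicle. Nr1d2 had 31.57, 21.56 and 34.14 FPKM with atorvastatin, and 39.05, 19.59 and 24.59 FPKM with vehicle, a log2 difference of 0.10 (SE 0.28, adjusted p = 0.943). By mean level over the 6 libraries the order was Nr1d1, Nr1d2 (28.4), Per1 (19.2), Cry1 (13.5), Dbp (7.12), Cry2 (6.49), Arntl (5.77), Per2 (4.65), Clock (3.91) and Per3. Neighbours in that order had overlapping ranges of libraries, apart from Clock and Per3. Compared within each library, Nr1d2 was above Per1 and Clock above Per3 in all 6. The other neighbours did not keep the same order in every library. The place of Dbp depends on vehicle library 1: over the other 5 libraries its median was 4.22 FPKM, below the medians of Cry2 (6.41) and Arntl (6.20).

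The comparison of atorvastatin with vehicle gave no call among these genes. In limma 0 of the 10 passed a false discovery rate of 0.05, as did 0 of all 13590 genes (0%), and 0 of the 10 had an unadjusted p under 0.05, against 974 of all genes (7.17%; 3.13% higher and 4.04% lower with atorvastatin). The groups overlapped in all 10, whereas they did not overlap in 14.4% of all genes tested. The log2 difference was above 0 in 7 genes and below 0 in 3 (Dbp, Per2 and Per3), beside 6382 of all 13590 genes above 0. The median was 0.11 beside -0.02 over all genes. Without vehicle library 1 all 10 differences were above 0, beside 6145 of all 13379 genes, with a median of 0.21 beside -0.02. Still 0 of the 10 had an unadjusted p under 0.05 in limma, beside 5.49% of all genes. The intervals of Clock, Cry1 and Cry2 reached at most 0.54 from 0 on the log2(FPKM + 1) scale, whereas those of Arntl, Nr1d1 and Dbp took in differences of more than 1 log2 unit. For Arntl and Dbp that width came with vehicle library 1: without it their intervals were -0.17 to 0.56 and -0.42 to 0.86, beside -0.24 to 0.70 for Cry2. That scale understates changes at low levels, such as those of Per3.

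**Figure D4:**
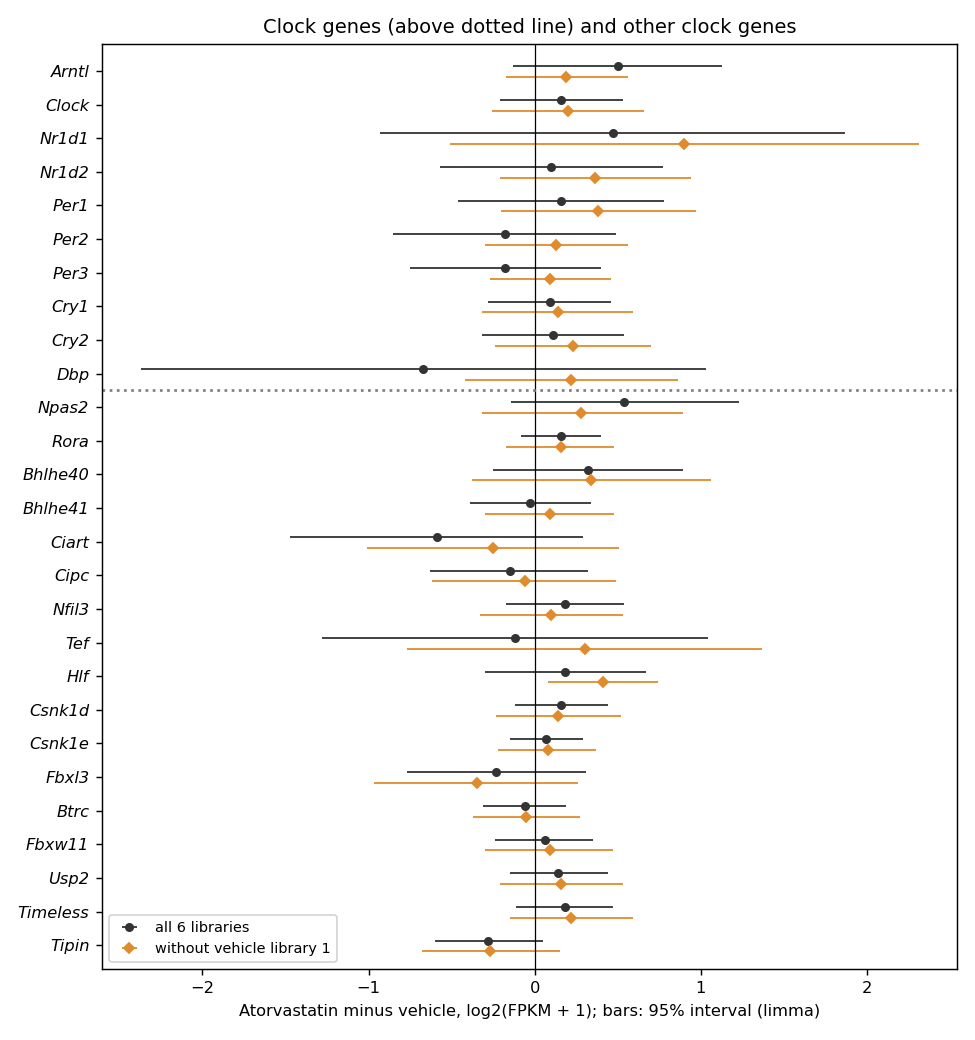
Difference of log2(FPKM + 1), atorvastatin minus vehicle, with its 95% interval from limma, for the 10 clock genes and 17 other clock genes, in all 6 libraries (black) and without vehicle library 1 (orange). Dbp moves from -0.67 to 0.22 when that library is left out, and all intervals of the 10 genes include 0.

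Other parts of the clock were read from a list of 21 further genes, of which 17 passed the filter. Of these 0 passed a false discovery rate of 0.05 and 0 had an unadjusted p under 0.05 in limma (7.17% of all genes did). The differences were above 0 in 10 and below 0 in 7, with a median of 0.07, beside 6382 of all 13590 genes above 0. Npas2, which can stand in for Clock beside ARNTL, had 2.93, 1.57 and 2.84 FPKM with atorvastatin, and 0.61, 2.26 and 1.38 FPKM with vehicle. Ciart, a repressor of the activating dimer, had 4.98, 4.96 and 10.10 FPKM with atorvastatin, and 16.84, 6.67 and 8.90 FPKM with vehicle. Over the 17 genes vehicle library 1 was highest in 4 and lowest in 2, beside 24% of all genes in which it was the extreme library, and it lay inside the range of the others for the rest. It was lowest for Npas2, as for Arntl, and highest for Ciart, as for Dbp, by 0.56 and 0.68 log2 units. Tef, a PAR bZIP factor like DBP, had 5.13, 4.67 and 4.78 FPKM with atorvastatin, and 10.42, 7.30 and 1.73 FPKM with vehicle, where vehicle library 1 was again highest and vehicle library 3 lowest. Hlf, the other factor of that family, had 2.68, 3.23 and 2.86 FPKM with atorvastatin, and 3.71, 1.83 and 2.07 FPKM with vehicle. Without vehicle library 1 it was the 1 gene of the list with an unadjusted p under 0.05 (log2 difference 0.41, SE 0.14, limma unadjusted p = 0.0235, adjusted p = 0.789), beside 5.49% of all genes.

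Other roles had abundant members. Bhlhe40, which competes for E-boxes and is also induced in activated lymphocytes, had 221 ± 45.3 FPKM with atorvastatin and 177 ± 39.6 FPKM with vehicle (SD, n = 3 each). Nfil3, which opposes DBP at D-boxes and is needed for innate lymphoid cells, had 84.8 ± 6.24 FPKM with atorvastatin and 75.0 ± 10.7 FPKM with vehicle. Csnk1d, a kinase that marks PER proteins for destruction, had 44.9 ± 3.44 FPKM with atorvastatin and 40.1 ± 2.40 FPKM with vehicle. Rora, an activator of Arntl, had 10.89, 10.61 and 11.77 FPKM with atorvastatin, and 9.73, 9.40 and 10.31 FPKM with vehicle. The groups did not overlap for Rora (log2 difference 0.16, SE 0.10, limma adjusted p = 0.727) and for Csnk1e, another PER kinase (0.07, SE 0.092, adjusted p = 0.857), 2 of the 17 genes, beside 14.4% of all genes. Tipin, whose product joins TIMELESS at replication forks, had 6.00 ± 0.970 FPKM with atorvastatin and 7.45 ± 0.672 FPKM with vehicle. Arntl2, Rorb and Fbxl21 were among the genes that did not pass the filter.

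Output genes that cycle in many mouse organs were read as well. Of 6, all measured, 1 had an unadjusted p under 0.05 in limma, beside 7.17% of all genes, and 0 passed over all genes. That gene was Por, cytochrome P450 oxidoreductase, with 46.86, 41.35 and 44.55 FPKM with atorvastatin, and 36.78, 34.76 and 34.47 FPKM with vehicle (log2 difference 0.32, SE 0.11, adjusted p = 0.692). All 3 atorvastatin libraries lay above all vehicle libraries (groups did not overlap in 14.4% of all genes), and without vehicle library 1 its unadjusted p was 0.0537. Over the 6 genes vehicle library 1 was highest in 1 and lowest in 1, beside 24% of all genes in which it was the extreme library. It lay inside the range of the others for the rest. The gene in which it was highest was Tspan4, a tetraspanin, by 0.57 log2 units. Tspan4 had 14.60, 10.41 and 13.51 FPKM with atorvastatin, and 22.38, 9.97 and 14.80 FPKM with vehicle. Tsc22d3, a glucocorticoid-induced gene, was highest in vehicle library 3 instead (10.04, 9.92 and 11.61 FPKM with atorvastatin, and 13.17, 10.90 and 18.50 FPKM with vehicle).

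Within the set, 2 patterns over the libraries could be seen. Arntl, Dbp, Per2 and Per3 differed mainly between vehicle library 1 and the rest, whereas Nr1d1, Per1 and Cry2 varied over all libraries and were high in atorvastatin library 1 too. Across the 6 libraries, over 45 pairs of genes on the log2(FPKM + 1) scale, 37 pairs had a positive and 8 a negative Pearson's r. By exact permutation tests over all 720 pairings, two-sided, 5 pairs had an unadjusted p under 0.05 for r and 6 for Spearman's rho, and 0 had an adjusted p under 0.05 for either. The number of pairings sets a floor to these p-values, so over 45 pairs a single pair could not reach an adjusted p under 0.05.

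Per1 and Nr1d1 had r = 0.96 (exact permutation p = 0.00417, adjusted 0.125) and rho = 0.94 (p = 0.0167, adjusted 0.188), and r was 0.86 without the 2 libraries farthest from the median of Per1, atorvastatin library 2 and vehicle library 3. Cry2 and Nr1d1 had r = 0.92 (exact permutation p = 0.00556, adjusted 0.125) and rho = 0.94 (p = 0.0167, adjusted 0.188), with r = 0.84 without atorvastatin library 1 and vehicle library 3. The order of the libraries was the same for Per1 and Dbp (rho = 1.0, exact permutation p = 0.00278, adjusted 0.125), but the spacing was not, with r = 0.70 (p = 0.0597, adjusted 0.422) and r = 0.54 without the farthest libraries. Arntl and Dbp had r = -0.89 (exact permutation p = 0.11, adjusted 0.422) and rho = -0.14 (p = 0.803, adjusted 0.962). Without vehicle library 1 and atorvastatin library 3, the 2 farthest from the median of Arntl, r was -0.24. The 2 were left out together, so the share of each in the relation is not given. Per2 and Per3 had r = 0.95 (exact permutation p = 0.00972, adjusted 0.146) and rho = 0.83 (p = 0.0583, adjusted 0.375). For them r was 0.31 with vehicle library 1 and atorvastatin library 2 left out together.

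**Figure D5:**
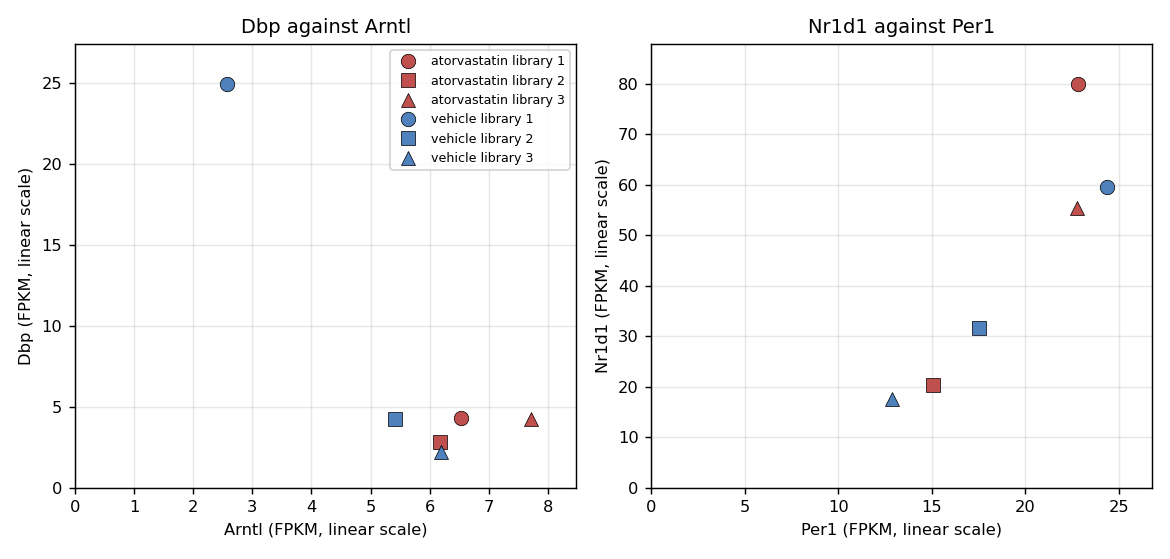
Left, FPKM of Dbp against Arntl; right, FPKM of Nr1d1 against Per1 (linear axes; red atorvastatin, blue vehicle, symbols for the library number). On the left 5 libraries lie together and vehicle library 1 lies apart at 24.89 FPKM of Dbp and 2.57 of Arntl; on the right the 6 libraries spread along a line, with r = 0.96 on the log2(FPKM + 1) scale.

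The genes with the pattern most like that of Arntl, among 6776 with an SD of at least 0.2 log2 units, were Paqr8 (r = 0.991, rho = 1.0), Zfp74 (r = 0.988, rho = 0.71) and Gm20467 (r = 0.986, rho = 1.0). Their exact permutation p for r adjusted over those genes was 0.362, 0.847 and 0.362, with r = 0.75, 0.57 and 0.95 without vehicle library 1 and atorvastatin library 3. With 6 libraries this test cannot give a p under 0.00139, the unadjusted value of Paqr8 and Gm20467. Over so many genes a single gene could therefore not reach a low adjusted p. Paqr8 had 1.57, 1.26 and 1.74 FPKM with atorvastatin, and 0.36, 1.25 and 1.38 FPKM with vehicle. Most like Dbp were Ppl (r = 0.976, rho = 0.49), Rab26os (r = 0.970, rho = 0.94) and Retreg2 (r = 0.969, rho = 0.71), each with an exact permutation p adjusted to 0.999. Without the 2 farthest libraries r was -0.37, 1.0 and 0.18 for these.

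Markers of cell types varied between libraries too. The leukocyte gene Ptprc was detected in all libraries (13.9 to 19.5 FPKM with atorvastatin and 17.7 to 18.6 FPKM with vehicle), and so were markers of fibroblasts, smooth muscle, endothelium and epithelium, and none of the markers was at 0 in all 6 libraries. Markers of macrophages, 4 of 4, were lowest in vehicle library 1. Their summed level was 165 to 178 FPKM with atorvastatin and 101, 137 and 207 FPKM in the vehicle libraries. Markers of neutrophils, S100a8 and S100a9, were highest in vehicle library 1, with a sum of 1.42 to 3.27 FPKM with atorvastatin and 6.81, 4.55 and 4.98 FPKM with vehicle. Of the 3 fibroblast markers 2 were lowest in vehicle library 1, with sums of 414 to 530 FPKM with atorvastatin and 428 to 522 FPKM with vehicle. Over all 13590 genes tested, vehicle library 1 was lowest in 1789 and highest in 1513. B cell markers summed to 198, 175 and 181 FPKM with atorvastatin, and to 273, 306 and 230 FPKM with vehicle. The groups thus did not overlap in the sums for B cells and neutrophils, and overlapped in those of the other cell types. In bulk RNA fewer cells of a type and less RNA per cell cannot be told apart. The part of cell makeup in the levels of the clock genes was not tested.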

How the data were processed

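The authors deposited 1 file of FPKM per library, so named per the file headers, with 2 decimals. The submitters' processing notes name FastQC 0.11.2, Bowtie and the genome build mm10; quantifier, annotation and strandedness are not stated there. The number of fragments per library is unknown, so no counting interval is given. FPKM summed to between 355787 and 456064 per library, with 13303 to 13703 genes at 1 FPKM or more. Symbols were looked up by Ensembl ID in a gene name table (260 of 55401 IDs had none); GENCODE M21 gives the 10 genes the same starts and ends as the files.

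Differences are of log2(FPKM + 1), fitted over all genes past the filter (1 FPKM or more in 3 libraries or more) by limma-trend (limma 3.58.1, R 4.3.3), two-sided, with Benjamini-Hochberg adjustment over all genes; the fit was tested on simulated data. Correlations used exact permutations (scipy 1.17.1). All 10 genes were named, with those other clock genes that had an unadjusted p under 0.05 or were most abundant in their role; Ciart, Tef, Hlf, Csnk1e, Tspan4, Tsc22d3, Por and Ier2, and the vehicle library described apart, were chosen after their values were seen. The genes and lists were chosen with earlier results of these data known; 1 gene of the lists is not reported here. Alternatives were a pseudocount of 0.1, no filter, other scalings, robust variance, a block for replicate number, and each library left out in turn.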

Additional observations from a re-analysis of the deposited data

How the results depend on the processing

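No clock gene passed a false discovery rate of 0.05 in limma under any alternative run (a pseudocount of 0.1, no filter on low values, median-of-ratios scaling, rescaling without immunoglobulin and mitochondrial genes, robust variance, the replicate block, and leaving out each library). With 1 library left out, between 0 and 2 of all genes passed (1 without atorvastatin library 1 and 2 without atorvastatin library 3), and between 0 and 1 of the 10 clock genes had an unadjusted p under 0.05; the 1 was Arntl without vehicle library 3 (log2 difference 0.70, unadjusted p = 0.0355, limma adjusted p = 0.587). The difference in limb balance ranged from -0.15 to 1.03, and its sign turned without vehicle library 1. The sign also turned, with 1 library left out, for Dbp (-1.29 to 0.22), Per2 (-0.35 to 0.13) and Per3 (-0.37 to 0.09) without vehicle library 1, for Per1 (-0.05 to 0.38) without vehicle library 3, for Cry1 (-0.03 to 0.16) without vehicle library 2 or atorvastatin library 3, for Cry2 (-0.04 to 0.23) without vehicle library 3 or atorvastatin library 1, and for Nr1d2 (-0.12 to 0.36) without vehicle library 2 or atorvastatin library 3. Arntl (0.19 to 0.70), Clock (0.04 to 0.24) and Nr1d1 (0.05 to 1.02) kept a positive sign in these. With a pseudocount of 0.1, vehicle library 1 lay over 1 log2 unit outside the others for 84 genes instead of 37, and for Dbp by 2.50 instead of 2.28. By arithmetic a smaller pseudocount widens log2 distances, most of all at low levels. With the replicate number as a block, 0 clock genes had an unadjusted p under 0.05 in limma and the limb difference was 0.55. Deviations of same-numbered libraries had r = -0.109, 0.137 and -0.015 across genes, beside -0.162 to 0.192 for libraries with different numbers. With 3 libraries per group these values cannot tell whether the numbers pair the libraries. The depth behind the values is unknown, and at 1 to 3 FPKM, the level of Per3, it limits precision in a way that cannot be given.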

Other observations

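Genes that, like Per1, answer to handling and hormones quickly were read as a further list. Of 12 such genes 11 had a log2 difference above 0 (6382 of 13590 over all genes), with a median of 0.30 beside -0.02 over all genes. In limma 0 of the 12 passed a false discovery rate of 0.05, and 1, Ier2, had an unadjusted p under 0.05 (0.0469, adjusted 0.692), beside 7.17% of all genes. Without vehicle library 1 the unadjusted p of Ier2 was 0.161, and 0 of the 12 genes had one under 0.05. Ier2, an immediate early gene, had 246.61, 216.66 and 267.64 FPKM with atorvastatin, and 170.55, 199.82 and 190.07 FPKM with vehicle. The 8 immediate early genes summed to 2973, 2400 and 3456 FPKM with atorvastatin, and to 2049, 2112 and 2526 FPKM with vehicle. Their sum was lowest in vehicle library 1, where Per1 was highest with 24.37 FPKM. The sum was highest in atorvastatin libraries 3 and 1, where Per1 had 22.75 and 22.83 FPKM. Whether Per1 follows these genes was not tested. The 4 glucocorticoid-induced genes Sgk1, Fkbp5, Klf9 and Zbtb16 summed to 76.6, 65.7 and 78.4 FPKM with atorvastatin, and to 70.8, 57.8 and 79.8 FPKM with vehicle, and vehicle library 1 lay inside that range.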
